A study of Mus musculus with 6 samples.

Results

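The solute carriers described here are 138 genes of the mouse Slc superfamily measured in splenic CD11c+ cells. They were taken by symbol, from the 258 genes whose names carry an Slc family number and that had a probe set naming them alone, with Slc40a1, Slc11a1, Slc7a11 and Slc4a1 left out by the rule. For each gene the probe set with the highest mean over all 6 arrays was used, and the gene was kept where that mean was at least 5 on the log2 scale. They are part of 12393 genes tested. The members were thus chosen by their mean level over both genotypes and not by the difference between them. The members just inside the level were Slc22a18, Slc22a12 and Slc25a42, at 5.0, 5.02 and 5.08, and the genes just outside it were Slc32a1, Slc13a3 and Slc5a5, at 4.88, 4.87 and 4.79. Slc9a3r1, Slc9a3r2 and Slc4a1ap match the symbol pattern but encode adaptor or scaffold proteins and no carriers.

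The cells were selected with magnetic beads for CD11c, the integrin that marks dendritic cells and is also carried by some splenic macrophages. They came from the spleens of untreated mice, 8 weeks of age, on the C57BL/6J background. The 3 arrays of the wild-type group were compared with the 3 arrays of mice hypomorphic for Atg16L1, which have reduced Atg16L1 function. Atg16L1 guides the conjugation of LC3 and its relatives to membranes during autophagy. Whether replicates are separate animals is not stated in the labels, and p-values therefore reflect only how much these samples vary. In a bulk sample, fewer cells of a type and less RNA per cell cannot be told apart.

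Solute carriers are membrane proteins that move amino acids, sugars, ions, metals, nucleotides and vitamins across the plasma membrane and the membranes of organelles. Most are exchangers or are driven by gradients of sodium, protons or other ions, and none uses ATP directly. In phagocytes they return the products of lysosomal digestion, such as amino acids, nucleosides and haem, to the cytosol, and they feed the synthesis of glutathione, of glycans and of mitochondrial cofactors.

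Values are log2 expression values for 1 probe set per gene, given as mean ± SD with n = 3 arrays per group, and levels of different genes are not compared. Genes are said to have risen or fallen in the hypomorph where the limma fit over all genes gave a Benjamini-Hochberg adjusted p under 0.05. Atg16l1 itself measured 7.07 ± 0.04 on the wild-type arrays against 6.03 ± 0.16 on the hypomorph arrays (adjusted p = 0.00163). The 24 poly-A spike-in probe sets, which measure bacterial transcripts added to the RNA, averaged 8.95 to 9.96 on the wild-type arrays and 7.58 to 7.90 on the hypomorph arrays. That difference had a two-sided exact permutation p of 0.1, the lowest possible with 3 arrays in each group. The 18 hybridization control probe sets averaged 11.1 to 11.6 on the wild-type arrays and 10.3 to 10.4 on the hypomorph arrays. They also did not overlap, with a p of 0.1 by the same permutation test. The poly-A spike-in level was then added to the model, a choice made after seeing the data. In that fit limma called 0 of all 12393 genes, members and Atg16l1 included, and 20 members were at an unadjusted p under 0.05. Since the spike-in level did not overlap between the genotypes, this fit can hardly tell it from genotype. Its lack of calls therefore decides nothing about either. All 9 dendritic cell markers were measured above level 5, with a mean of 10.23 to 10.50 in wild type and 9.95 to 10.06 in the hypomorph. By limma 3 of them fell (Itgax, Zbtb46 and Ciita), of which Ciita alone held without hypomorph replicate 2 or 3. At an unadjusted p under 0.05, 6 of the 9 were lower and 0 higher, and their median log2 difference was -0.33. Of 16 macrophage markers 15 rose and only Siglec1, at 4.35 and 4.47, was not called. The mean of the macrophage list was 8.74 to 9.33 in wild type and 10.60 to 10.68 in the hypomorph. Of 4 measured B cell markers 3 fell, and the list averaged 8.36 to 8.46 in wild type and 7.61 to 8.04 in the hypomorph. Those falls numbered 1 without wild-type replicate 3 or hypomorph replicate 1 and 0 without hypomorph replicate 3. Of 4 platelet markers Pf4 and Ppbp fell, with 0 falls without any 1 array other than wild-type replicate 3. Of 4 endothelial markers Kdr fell, a call lost without any 1 hypomorph array, with 2 falls without wild-type replicate 1 and a rise of 1 marker without wild-type replicate 2. Of 3 erythroid markers Epor rose in every such fit. Of 5 neutrophil markers 0 were called by limma (1 higher and 1 lower at an unadjusted p under 0.05), with 1 rise without wild-type replicate 3. T cell and NK cell markers, 4 of each measured, had 0 calls by limma and 0 at an unadjusted p under 0.05. The part of the spike-in level, of the hybridization controls and of these cell type markers in the differences below was not tested.

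Among the 138 members 29 rose (21.0%) and 11 fell (7.97%) in the hypomorph. Over all genes tested 9.76% rose and 8.47% fell, and over the 7764 genes with a mean of 5 or more, which met the same level rule, 14.6% rose and 11.2% fell. The median log2 difference, hypomorph minus wild type, was 0.09 over the members, -0.02 over genes with a mean of 5 or more and -0.05 over all genes. Differences ranged from -0.96 for Slc9a3r2 to 2.07 for Slc45a3, with 84 members above 0 and 54 below. Slc39a8, Slc7a8, Slc25a42 and Slc22a12 reached the level of 5 through the hypomorph alone, and Slc9a3r2 and Slc22a18 through wild type alone, so that the rule itself favoured a difference in them. Among the 132 members with both group means at 5 or more, 20.5% rose and 7.58% fell, against 14.4% and 11.0% of the 7549 genes that met the same condition. The arrays of the groups did not overlap for 75 members (54.3%), against 53.6% of genes at that level and 41.0% of all genes. A change of at least 1.5-fold was seen in 19 of the members that rose and in 2 of those that fell, or 13.8% and 1.45% of members. The shares were 7.83% and 3.5% of genes at that level, and 5.21% and 2.68% of all genes. With 1 array left out, 18 to 29 members rose, with 19 without hypomorph replicate 1 and 18 without hypomorph replicate 3. The members that fell then numbered 3 to 9, with 5 without wild-type replicate 1, 6 without wild-type replicate 3, 5 without hypomorph replicate 1 and 3 without hypomorph replicate 2 or 3. Over all genes tested the rises went from 1210 to between 550 and 1184 and the falls from 1050 to between 192 and 1088 in these fits. In all 6 of these fits 18 of the 29 and 3 of the 11 calls held, and the latter were Slc9a3r2, Slc1a5 and Slc38a2.

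**Figure D1:**
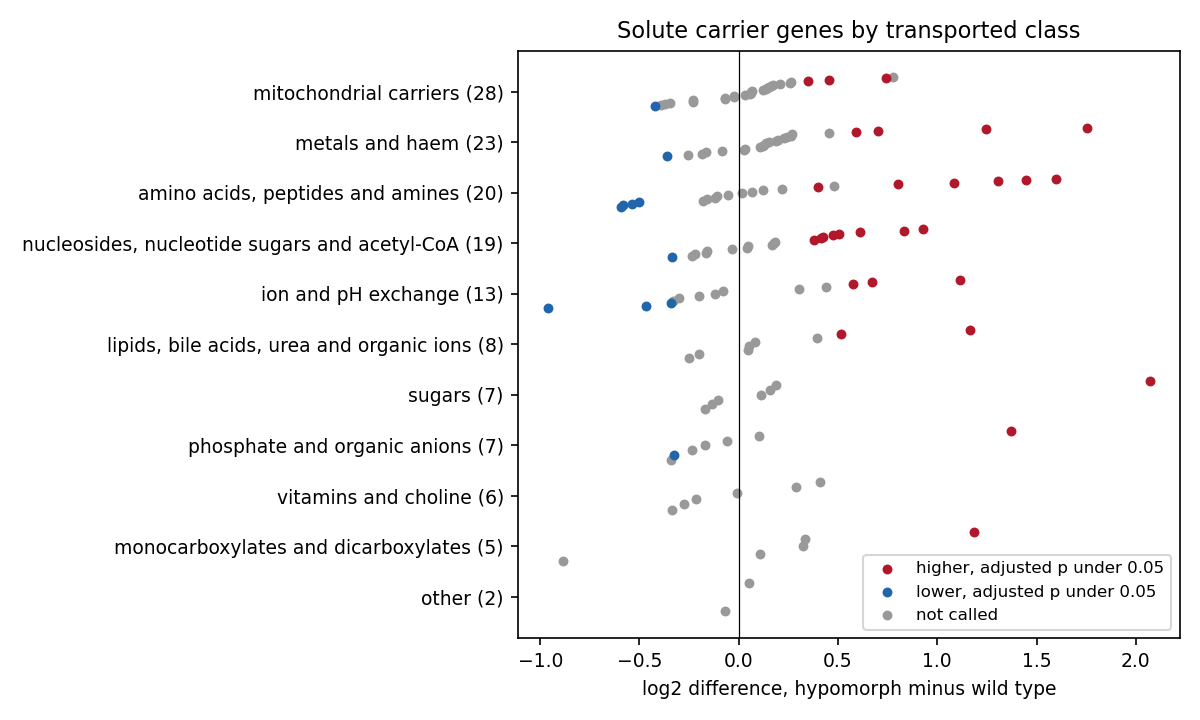
The horizontal axis gives the log2 difference, hypomorph minus wild type, and each point is 1 solute carrier gene, set in rows by transported class with the number of genes in brackets. Red genes rose and blue genes fell at an adjusted p under 0.05, and the rightmost point, Slc45a3 at 2.07, lies in a sugar class whose other 6 genes were not called.

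By transported class, nucleoside, nucleotide sugar and acetyl-CoA carriers held 8 of the rises among 19 members and 1 fall. Carriers of amino acids, peptides and amines held 6 rises and 4 falls among 20 members. Of 23 metal and haem carriers 4 rose and 1 fell, of 28 mitochondrial carriers 3 rose and 1 fell, and of 10 ion and pH exchangers 3 rose and 2 fell. The class of ion and pH exchange also holds the 3 adaptor genes, of which Slc9a3r2 fell. Of the called genes, Slc7a8 and Slc39a8 reached the level of 5 through the hypomorph alone and Slc9a3r2 through wild type alone. For comparison, 14.6% of all genes with a mean of 5 or more rose and 11.2% fell. Of 6 vitamin and choline carriers 0 were called by limma, with 2 higher and 3 lower at an unadjusted p under 0.05.

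The largest rise was in Slc45a3, a proton-coupled carrier assigned to sugar transport. It measured 6.49, 7.29 and 6.98 in wild-type replicates 1, 2 and 3 and 9.06, 8.86 and 9.05 in hypomorph replicates 1, 2 and 3. Every hypomorph array lay far above the highest wild-type array, and the groups did not overlap. The 4.20-fold rise had a log2 difference of 2.07 (SE 0.194, adjusted p = 0.00164). A second probe set of the gene rose by 2.21. Both probe sets carry the suffixes with which Affymetrix marks sets that may also match other transcripts.

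**Figure D2:**
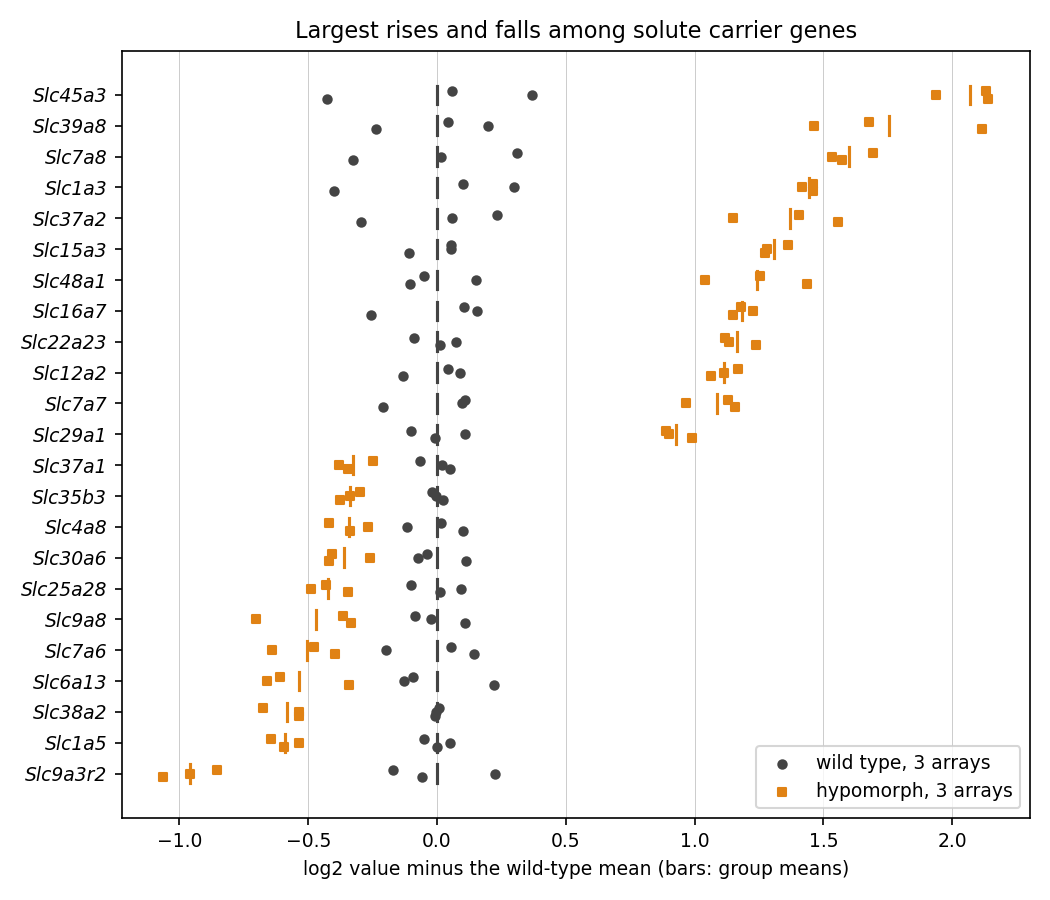
The horizontal axis gives each array's log2 value minus the wild-type mean of that gene, for the 12 largest rises and all 11 falls. Grey circles are the 3 wild-type arrays, orange squares the 3 hypomorph arrays and vertical bars the group means. Genes were picked among called members without overlap, so the 2 groups are apart in every row by choice. The rows run from Slc45a3 at 2.07 to Slc9a3r2 at -0.96.

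Amino acid carriers moved in both directions. Slc3a2 encodes 4F2hc, the heavy chain that brings several Slc7 light chains to the cell surface. It measured 9.01, 9.20 and 9.32 on the wild-type arrays and 10.09, 9.92 and 9.93 on the hypomorph arrays, a rise of 1.75-fold (log2 0.80, SE 0.104, adjusted p = 0.00435). All hypomorph values lay above all wild-type values. Its light-chain partners, which set the substrate, did not share 1 direction. Slc7a8, the LAT2 exchanger of neutral amino acids, measured 4.45, 4.79 and 5.09 in wild type and 6.35, 6.31 and 6.47 in the hypomorph, a rise of 3.03-fold (adjusted p = 0.00186). It was among the genes that reached the level through the hypomorph alone. Slc7a7, the y+LAT1 exchanger of cationic and neutral amino acids, measured 7.11, 7.42 and 7.43 in wild type and 8.48, 8.29 and 8.45 in the hypomorph, a rise of 2.12-fold (adjusted p = 0.00204). Slc7a8 and Slc7a7 were clear of the wild-type range on every hypomorph array. Slc7a6, the related y+LAT2 exchanger, measured 7.25, 6.91 and 7.17 in wild type and 6.71, 6.47 and 6.63 in the hypomorph, a fall of 1.42-fold (adjusted p = 0.0275). Its groups did not overlap either, but the call was lost without any 1 array other than wild-type replicate 2, and its second probe set was at a log2 difference of -0.09. Slc7a5, the LAT1 exchanger of large neutral amino acids, was at 7.27 ± 0.14 and 7.09 ± 0.12 with overlapping groups (adjusted p = 0.278).

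**Figure D3:**
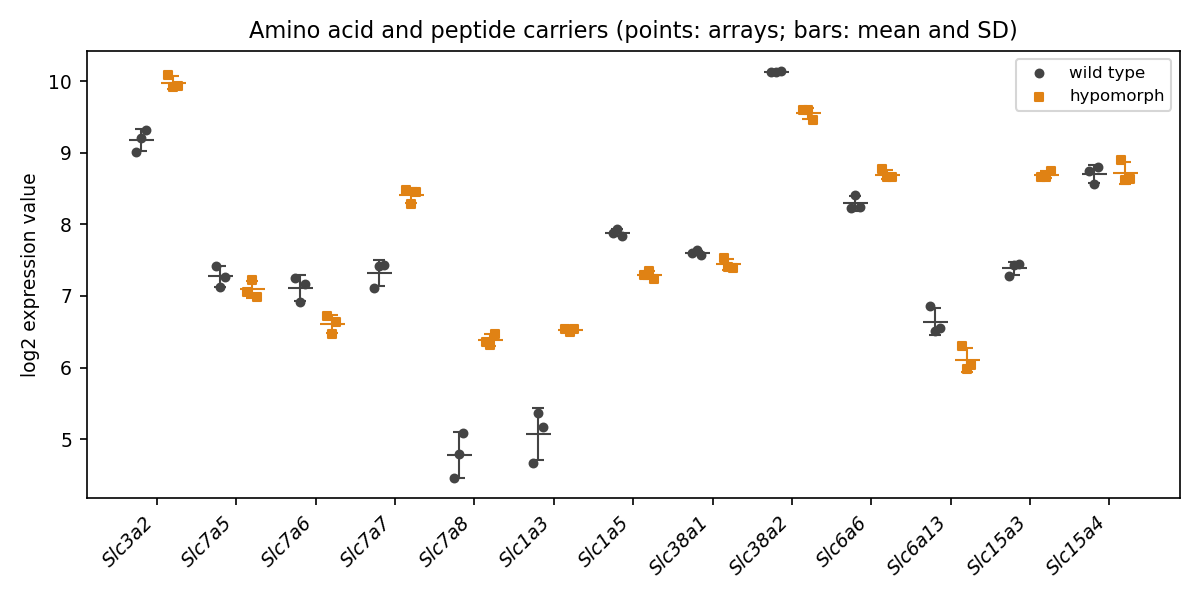
The vertical axis gives log2 expression values of 13 amino acid and peptide carriers, with grey circles for wild-type and orange squares for hypomorph arrays and bars for mean and SD (3 arrays per group). The glutamine carriers Slc1a5 and Slc38a2 lie lower in the hypomorph while Slc3a2, Slc7a7, Slc7a8, Slc1a3 and Slc15a3 lie higher.

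Of the sodium-coupled importers of glutamine and other small neutral amino acids, Slc1a5 and Slc38a2 fell. Slc1a5, or ASCT2, measured 7.88, 7.93 and 7.83 in wild type and 7.29, 7.35 and 7.24 in the hypomorph. The arrays within each group lay close together and far from the other group, and the fall was 1.51-fold (log2 -0.59, SE 0.073, adjusted p = 0.00362). Slc38a2, or SNAT2, which is induced when amino acids are scarce, measured 10.12, 10.13 and 10.14 in wild type and 9.60, 9.60 and 9.46 in the hypomorph, a fall of 1.5-fold (adjusted p = 0.00417). Slc38a1, a relative with like substrates, was at 7.60 ± 0.03 and 7.44 ± 0.08 and did not pass (adjusted p = 0.19), and Slc38a3 was at 5.06 and 5.18 (adjusted p = 0.392). In contrast Slc1a3, the GLAST carrier of glutamate and aspartate, measured 4.67, 5.37 and 5.17 in wild type and 6.53, 6.49 and 6.53 in the hypomorph, a rise of 2.72-fold (adjusted p = 0.0031). Its 2 further probe sets rose as well.

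Carriers of taurine and of GABA also split. Slc6a6, the taurine carrier, rose from 8.29 ± 0.10 to 8.70 ± 0.07 (adjusted p = 0.0212), and Slc6a13, which carries GABA and taurine, fell from 6.64 ± 0.19 to 6.10 ± 0.17 (adjusted p = 0.0327). In the fit that includes the spike-in level the difference of Slc6a13 was 0.12. The call of Slc6a6 was lost without any 1 hypomorph array or wild-type replicate 3, and that of Slc6a13 when any 1 array other than wild-type replicate 2 or hypomorph replicate 1 was left out. Over the class, falls numbered 2 instead of 4 when any 1 of those same 4 arrays was missing. A list of 18 genes holds Atf4 and ATF4 targets, the genes of the transcriptional response to amino acid shortage. It had 1 rise and 4 falls with a median log2 difference of -0.12. Over all genes tested 9.76% rose and 8.47% fell. The serine synthesis genes Phgdh and Psat1 had the smallest p-values of the list, with falls of 1.70-fold (adjusted p = 0.00918) and 1.43-fold (adjusted p = 0.0146). The other falls were Shmt2 and Mthfd2, and the rise was Ddit4. Atf4, Ddit3, Trib3, Chac1, Asns and Sesn2 were not called (adjusted p = 0.109 to 0.759). The falls of this list numbered 1 when hypomorph replicate 1 or 3 was missing, and 2 when hypomorph replicate 2, wild-type replicate 1 or wild-type replicate 3 was missing. Its single rise was lost without any 1 array other than wild-type replicate 2, where 2 genes rose.

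Of 8 measured carriers of the lysosomal membrane 3 rose and 0 fell by limma, with 3 rises in every fit that left out 1 array. Over genes with a mean of 5 or more the shares were 14.6% and 11.2%. A further 3 of the 8, Slc17a9, Slc46a3 and Slc30a4, were at differences of -0.34, -0.34 and -0.26, with an unadjusted p of 0.0389, 0.0227 and 0.0214. Slc17a9 and Slc30a4 were named after their values were seen. Slc15a3, which exports histidine and peptides from the lysosome with protons, measured 7.27, 7.44 and 7.44 in wild type and 8.66, 8.67 and 8.75 in the hypomorph. No hypomorph array came near the wild-type values, and the rise of 2.47-fold had an adjusted p of 0.00107. Slc48a1, or HRG1, which passes haem from the phagolysosome to the cytosol, measured 7.53, 7.78 and 7.58 in wild type and 9.07, 8.67 and 8.89 in the hypomorph, a rise of 2.37-fold (adjusted p = 0.00188). Its second probe set rose by 1.34 on the log2 scale. Slc29a3, the ENT3 nucleoside carrier of lysosomes, rose from 7.96 ± 0.13 to 8.57 ± 0.10, or 1.53-fold (adjusted p = 0.00858). Slc15a4, the closest lysosomal relative of Slc15a3, was at 8.70 ± 0.13 and 8.72 ± 0.16 with overlapping groups (adjusted p = 0.938). The median log2 difference of the 8 was 0.03. The macrophage markers, which include the haem oxygenase gene Hmox1, rose on the same arrays, and their part in these rises was not tested.

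Zinc carriers belong to the Slc39 family, which brings zinc into the cytosol, and the Slc30 family, which removes it. Of 9 Slc39 members 2 rose and 0 fell by limma (4 and 0 at an unadjusted p under 0.05), and of 7 Slc30 members 1 rose and 1 fell. By limma 14.6% of genes with a mean of 5 or more rose and 11.2% fell. Slc39a8, or ZIP8, which also carries manganese and iron, measured 4.47, 4.91 and 4.75 in wild type and 6.83, 6.18 and 6.39 in the hypomorph. The wild-type arrays lay below level 5 and all hypomorph arrays above 6, and the rise was 3.37-fold (log2 1.75, SE 0.186, adjusted p = 0.00223). A second, dim probe set of the gene, with a mean of 2.92, showed a log2 difference of 0.0003. Slc39a8 also reached the level through the hypomorph alone, and without it 1 Slc39 member rose. Slc39a1, or ZIP1, rose from 7.84 ± 0.15 to 8.54 ± 0.07, or 1.63-fold (adjusted p = 0.00564). Slc30a1, or ZnT1, the zinc exporter of the plasma membrane, rose from 5.60 ± 0.25 to 6.19 ± 0.23 (adjusted p = 0.0463). Slc30a6, or ZnT6, of the Golgi, fell from 7.48 ± 0.10 to 7.12 ± 0.09 (adjusted p = 0.0327). The calls of Slc30a1 and Slc30a6 were each lost without any 1 array other than wild-type replicate 2. The brightest metal carriers, Slc30a5 and Slc39a6, were not called (adjusted p = 0.822 and 0.11).

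**Figure D4:**
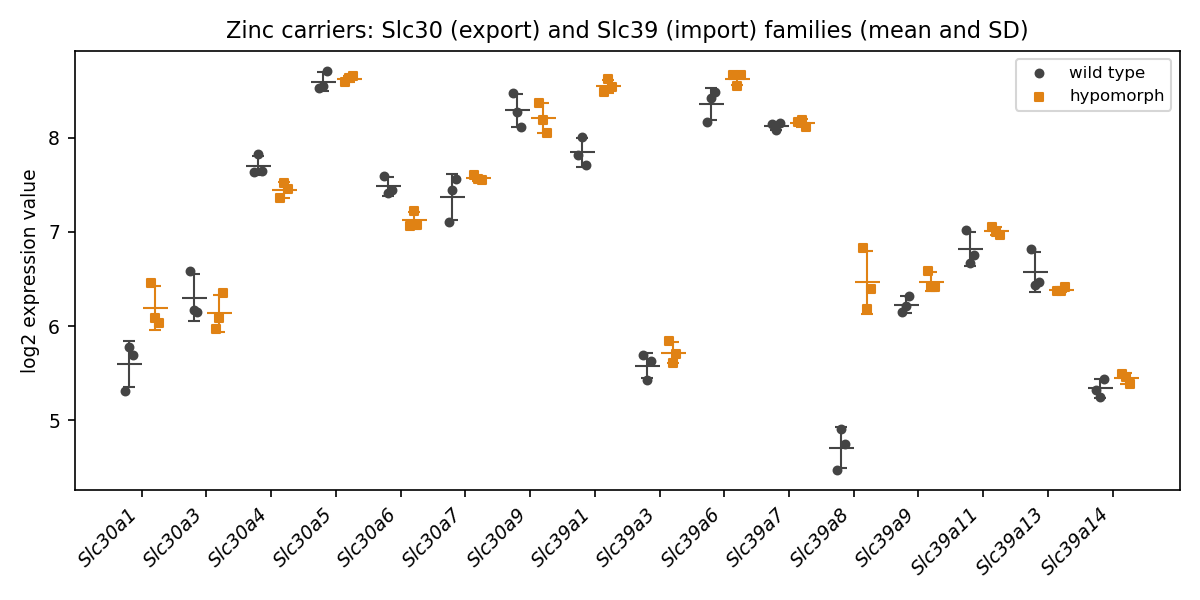
The vertical axis gives log2 expression values of the 7 Slc30 and 9 Slc39 members, with grey circles for wild-type and orange squares for hypomorph arrays and bars for mean and SD (3 arrays per group). Slc39a8 lies 1.75 higher in the hypomorph, and the groups of 8 of the 16 genes overlap.

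Among other genes of metal handling, 4 of 10 measured rose and 1 fell, with 2 rises without hypomorph replicate 1. The shares over genes with a mean of 5 or more were 14.6% and 11.2%. Fth1, the ferritin heavy chain that stores iron, rose 1.82-fold (adjusted p = 0.00417), and Ireb2, an iron-regulatory protein, fell 1.42-fold (adjusted p = 0.00454). The copper carriers Slc31a1 and Slc31a2 and the magnesium carriers Slc41a1, Slc41a2 and Slc41a3 were not called, and the iron carrier Slc11a2 was at 5.79 and 5.94 (adjusted p = 0.227).

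Among the 19 nucleoside, acetyl-CoA and Slc35 carriers 8 rose. Slc29a1, the ENT1 nucleoside carrier of the plasma membrane, measured 5.99, 6.11 and 5.90 in wild type and 6.99, 6.90 and 6.89 in the hypomorph, a rise of 1.90-fold (log2 0.93, SE 0.084, adjusted p = 0.00147). With Slc29a3 both Slc29 genes at or above the level of 5 rose, and neither call was lost in any fit without 1 array. Under the level, Slc29a4 fell and Slc29a2 was not called. In the Slc35 family, which holds carriers that load the endoplasmic reticulum and Golgi with nucleotide sugars, 5 of 16 rose and 1 fell. Of genes with a mean of 5 or more, 14.6% rose and 11.2% fell. Slc35f6, whose substrate is not settled, measured 6.02, 6.00 and 6.08 in wild type and 6.86, 6.87 and 6.88 in the hypomorph, a rise of 1.78-fold (adjusted p = 0.00136). The spread within each group was far smaller than the gap between them. Slc35a1, the carrier of CMP-sialic acid, rose 1.34-fold (7.71 ± 0.06 to 8.14 ± 0.13, adjusted p = 0.0225). Slc35b4, a carrier of UDP-xylose and UDP-N-acetylglucosamine, rose 1.33-fold (adjusted p = 0.0326), Slc35f5 rose 1.39-fold (adjusted p = 0.016) and Slc35a5 1.42-fold (adjusted p = 0.0397).

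Slc33a1, which carries acetyl-CoA into the endoplasmic reticulum, rose 1.30-fold from 6.94 ± 0.11 to 7.32 ± 0.15 (adjusted p = 0.0472). Slc35b3, a carrier of the sulfate donor PAPS, fell from 8.43 ± 0.02 to 8.10 ± 0.04 (adjusted p = 0.0188), while Slc35b2, which carries the same donor, was at 7.17 ± 0.08 and 7.34 ± 0.01 (adjusted p = 0.158). The rises of the class numbered 5 without wild-type replicate 3, 3 without hypomorph replicate 1, 4 without hypomorph replicate 2 and 3 without hypomorph replicate 3. Its 1 fall was lost without any 1 hypomorph array. The call of Slc33a1 was lost without any 1 of the 6 arrays, and that of Slc35a5 without any 1 hypomorph array or wild-type replicate 2. That of Slc35b4 was lost without any 1 array other than wild-type replicate 2, and that of Slc35f5 without any 1 hypomorph array. Slc35a1 lost its call without wild-type replicate 3, hypomorph replicate 1 or hypomorph replicate 3. In the fit that includes the spike-in level, Slc35a5 was at a log2 difference of -0.31.

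**Figure D5:**
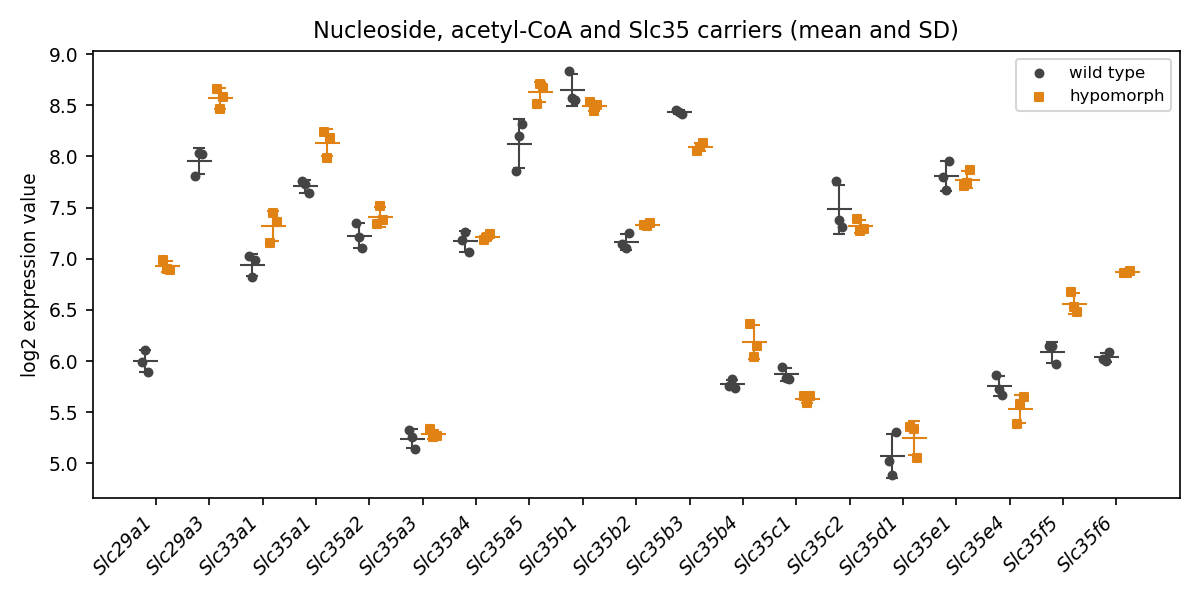
The vertical axis gives log2 expression values of the 19 nucleoside, acetyl-CoA and Slc35 carriers, with grey circles for wild-type and orange squares for hypomorph arrays and bars for mean and SD (3 arrays per group). Slc29a1 and Slc35f6 show the widest gaps relative to their spread, and Slc35b3 is the only gene of the class that fell.

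Of the 10 ion and pH exchangers 3 rose and 2 fell. Slc12a2, or NKCC1, which imports sodium, potassium and chloride, measured 9.83, 10.05 and 10.00 in wild type and 11.02, 11.07 and 11.13 in the hypomorph. The groups were fully apart, the rise was 2.17-fold (log2 1.12, SE 0.086, adjusted p = 0.00136), and all 3 probe sets of the gene rose, by 1.12, 1.20 and 1.12. Slc12a7, the potassium and chloride exporter KCC4, rose from 7.06 ± 0.20 to 7.73 ± 0.16 (adjusted p = 0.0163), and Slc8b1, the sodium and calcium exchanger of mitochondria, rose from 8.83 ± 0.21 to 9.41 ± 0.07 (adjusted p = 0.0188). Falls were seen in Slc9a8, a sodium and proton exchanger of the Golgi, by 0.47 (adjusted p = 0.0376) with a second probe set at a difference of 0.015, and in Slc4a8, a sodium-driven chloride and bicarbonate exchanger, by 0.34 (adjusted p = 0.039). The scaffold gene Slc9a3r2 fell the most of all members, from 5.56, 5.84 and 5.44 in wild type to 4.55, 4.66 and 4.76 in the hypomorph, or 1.94-fold (adjusted p = 0.00387). All its hypomorph values lay below level 5, so that it was kept through wild type alone, and 3 of its 6 probe sets fell. The related scaffold Slc9a3r1 was at 9.43 ± 0.13 and 9.73 ± 0.07 (adjusted p = 0.0588).

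Of the exchangers 1 instead of 3 rose without hypomorph replicate 1 or 3. Their falls numbered 1 without wild-type replicate 2 and 0 without any other 1 array. The sodium-potassium pump builds the sodium gradient that many of these carriers use. Its subunit Atp1b1 rose 1.43-fold (adjusted p = 0.0212) and Atp1b2 fell 1.34-fold (adjusted p = 0.0173). Of 6 listed subunits 3 were measured, and of these 2 rose and 1 fell. All 3, Atp1b1, Atp1b2 and Atp1b3, are beta subunits, and no alpha subunit was among them. Both pump rises were lost without any 1 hypomorph array and 1 of them without wild-type replicate 3, and the fall was lost without hypomorph replicate 2 or 3.

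Mitochondrial carriers form the Slc25 family, of which 28 members were measured at or above the level and 24 were not called. Slc25a26, which brings S-adenosylmethionine into the mitochondrion, measured 5.70, 6.10 and 5.98 in wild type and 6.69, 6.60 and 6.71 in the hypomorph, a rise of 1.67-fold (adjusted p = 0.00774). Slc25a51, the carrier of NAD+, rose from 9.16 ± 0.03 to 9.62 ± 0.09 (adjusted p = 0.0109). Slc25a36, a carrier of pyrimidine nucleotides, rose from 9.58 ± 0.12 to 9.92 ± 0.08 (adjusted p = 0.0418). Its call was lost without any 1 array other than wild-type replicate 2. Slc25a28, or mitoferrin 2, which brings iron into mitochondria, fell from 8.02 ± 0.10 to 7.59 ± 0.07 (adjusted p = 0.018), and its relative Slc25a37, or mitoferrin 1, was at 8.29 ± 0.25 and 7.95 ± 0.58 (adjusted p = 0.445). Without hypomorph replicate 3 only 1 carrier of this class, instead of 3, rose, and without hypomorph replicate 2 or 3 none fell. The ADP/ATP carrier Slc25a5 and the phosphate carrier Slc25a3, the brightest of the class, were not called (adjusted p = 0.141 and 0.597). When each of the 8 probe sets of Slc25a5 was fitted alone by limma, those at differences of 0.57 and 0.49 rose (adjusted p = 0.0489 and 0.0394). The others were not called.

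Slc25a33, another pyrimidine nucleotide carrier, was at 5.60, 6.60 and 6.85 in wild type and 7.22, 6.94 and 7.22 in the hypomorph. The groups did not overlap, but wild-type replicate 1 lay far below the other wild-type arrays, and the difference of 0.78 did not pass (adjusted p = 0.124).

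Sugar carriers other than Slc45a3 did not pass the test. The glucose carriers Slc2a1 and Slc2a3 were at 8.09 ± 0.35 and 8.28 ± 0.15 and at 9.65 ± 0.12 and 9.55 ± 0.13 in wild type and hypomorph (adjusted p = 0.505 and 0.506). All 4 Slc2 members had overlapping groups. Of 13 measured glycolysis genes 0 rose and 1 fell by limma, against 14.6% and 11.2% of genes with a mean of 5 or more. At an unadjusted p under 0.05, 1 was higher and 6 were lower. The gene that fell by limma was the phosphofructokinase Pfkp, by 0.26 (adjusted p = 0.0378). Its call held only with all 6 arrays or without wild-type replicate 1. Hk1, the hexokinase with the next smallest p, was at a difference of -0.32 (adjusted p = 0.0576).

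Slc37a2, a sugar phosphate and phosphate exchanger of the endoplasmic reticulum that is abundant in macrophages, measured 5.31, 5.66 and 5.84 in wild type and 7.16, 6.75 and 7.01 in the hypomorph. The groups were well apart, and the rise was 2.59-fold (log2 1.37, SE 0.162, adjusted p = 0.0031). Its relative Slc37a1 fell from 6.55 ± 0.06 to 6.22 ± 0.07 (adjusted p = 0.0299), a call lost without any 1 array other than wild-type replicate 3. The phosphate importers Slc20a1 and Slc20a2 were not called (adjusted p = 0.617 and 0.725).

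The monocarboxylate carrier Slc16a7, or MCT2, which takes up pyruvate and lactate with high affinity, measured 5.27, 5.68 and 5.63 in wild type and 6.67, 6.75 and 6.70 in the hypomorph. All hypomorph arrays were higher, by 2.27-fold on average (log2 1.18, SE 0.119, adjusted p = 0.00192). Slc16a1, or MCT1, measured 8.02, 9.29 and 8.41 in wild type and 7.88, 7.91 and 7.28 in the hypomorph. These groups did not overlap, but the wild-type arrays were widely spread and the difference of -0.88 did not pass (adjusted p = 0.109). Slc16a6 was at 7.82 and 8.15 (adjusted p = 0.117). Without wild-type replicate 2, 2 members of the class rose instead of 1.

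Of the 8 carriers of lipids, bile acids, urea and organic ions 2 rose and 0 fell. The shares were 14.6% and 11.2% of genes with a mean of 5 or more. Slc22a23, an orphan of the organic ion family, measured 5.81, 5.88 and 5.71 in wild type and 7.04, 6.93 and 6.92 in the hypomorph, a rise of 2.24-fold (adjusted p = 0.00118). Slc10a3, an orphan of the bile acid carrier family, rose from 6.24 ± 0.09 to 6.76 ± 0.02 (adjusted p = 0.00718). Neither call was lost in any fit without 1 array. The carnitine importer Slc22a5 and the urea carrier Slc14a1 were not called (adjusted p = 0.135 and 0.0567). Among vitamin and choline carriers the smallest adjusted p was 0.0757, for the choline carrier Slc44a1 at 9.01 and 8.73. Slc44a2 was at 11.10 in both groups (adjusted p = 0.953) and the lysosomal carrier Slc46a3 at 10.15 ± 0.18 and 9.81 ± 0.13 (adjusted p = 0.0869). The lysosomal carrier of cationic amino acids Slc66a1 and its relative Slc66a2 were not called (adjusted p = 0.794 and 0.765). Without wild-type replicate 2, 1 vitamin or choline carrier rose.

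Genes listed with the superfamily under other symbols gave 7 rises and 2 falls among 22 measured. They include Bsg, which was among the rises, and Emb, and these encode no carriers. Over all genes tested 9.76% rose and 8.47% fell, and over those with a mean of 5 or more 14.6% and 11.2%. Xpr1, the phosphate exporter, rose 1.78-fold (adjusted p = 0.00309), and Flvcr2, a choline carrier first described for haem, fell from 5.18 ± 0.06 to 4.70 ± 0.04 (adjusted p = 0.00737). The rises numbered 2 and the falls 1 without any 1 hypomorph array.

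Probe sets of the same gene were compared after fitting each of 20379 single-gene probe sets, of which 9.95% rose and 7.73% fell. Of the 19 called members with further probe sets, 12 had another called in the same direction and 0 had one called in the opposite direction. For Slc25a26, Slc35b4, Slc39a8, Slc4a8, Slc6a6, Slc7a6 and Slc9a8 no further probe set was called. In 7 uncalled members another probe set was called, lower for Slc25a29 and higher for Slc15a2, Slc25a44, Slc25a5, Slc35a2, Slc39a9 and Slc9a3r1. For Slc15a2, a proton-coupled peptide importer, the bright probe set measured 5.96, 8.57 and 9.34 in wild type and 8.86, 8.41 and 8.03 in the hypomorph (adjusted p = 0.712), with wild-type replicate 1 far below all other arrays. Its dimmer probe set measured 5.20, 5.56 and 5.47 in wild type and 6.42, 6.53 and 6.48 in the hypomorph, with no overlap and a log2 difference of 1.07 (adjusted p = 0.0017).

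The spread between arrays was wider in wild type, with a median SD of 0.151 over the members against 0.091 in the hypomorph, and it was the larger of the pair for 107 of 138 members. The titles give wild-type replicate 1 another leading number, whose meaning is not stated, and wild-type replicate 3 another array name than the rest. Without those arrays, which leaves 1 wild-type array and no measure of its spread, the median log2 difference was 0.11 over the members. Over all genes it was -0.0035.

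Promoter sequence was read for members from RefSeq on build GRCm38.p6, as the 200 bases before the outermost annotated start of the gene. Such a window was held for 53 members, of which 10 rose and 5 fell. The windows were searched on both strands for CACGTG, the palindromic E-box core bound by factors such as TFEB and MYC, and for TGACNNNGC, the antioxidant response core bound by NRF2. The windows below are those of all 3 members that rose and hold CACGTG, and, as examples of TGACNNNGC, those of Slc45a3, the largest rise, and of Slc38a2, a fall kept in every fit without 1 array. Slc29a1, which rose, and Slc6a13 and Slc9a3r2, which fell, also hold TGACNNNGC and are not shown. Capitals mark the match, and each is written 5' to 3' on the strand of the gene. The first 3 hold CACGTG and the last 2 TGACNNNGC, and the match motifs did not overlap each other.

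Slc35a5, chr16:45158674-45158873, minus strand: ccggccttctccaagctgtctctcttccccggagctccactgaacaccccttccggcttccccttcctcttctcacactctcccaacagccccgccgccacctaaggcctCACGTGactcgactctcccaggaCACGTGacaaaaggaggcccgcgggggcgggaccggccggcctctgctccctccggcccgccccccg

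Slc33a1, chr3:63964734-63964933, minus strand: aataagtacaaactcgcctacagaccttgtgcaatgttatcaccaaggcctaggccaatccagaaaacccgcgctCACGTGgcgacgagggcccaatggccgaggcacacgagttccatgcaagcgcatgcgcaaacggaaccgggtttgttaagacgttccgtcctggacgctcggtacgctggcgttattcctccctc

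Slc25a36, chr9:97111042-97111241, minus strand: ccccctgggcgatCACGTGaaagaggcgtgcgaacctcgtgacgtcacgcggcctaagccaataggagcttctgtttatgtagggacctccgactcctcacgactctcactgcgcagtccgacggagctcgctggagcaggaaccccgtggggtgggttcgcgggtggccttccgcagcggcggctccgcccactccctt

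Slc45a3, chr1:131962715-131962914, plus strand: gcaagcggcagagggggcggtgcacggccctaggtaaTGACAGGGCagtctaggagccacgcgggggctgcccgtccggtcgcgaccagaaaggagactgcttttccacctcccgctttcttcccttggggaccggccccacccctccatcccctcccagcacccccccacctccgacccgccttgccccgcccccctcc

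Slc38a2, chr15:96699729-96699928, minus strand: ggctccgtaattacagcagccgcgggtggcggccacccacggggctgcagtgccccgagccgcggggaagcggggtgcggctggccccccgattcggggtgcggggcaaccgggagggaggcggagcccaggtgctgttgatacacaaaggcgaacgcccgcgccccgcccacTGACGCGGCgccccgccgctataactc

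In Slc35a5 the matches began 90 and 67 bases before the gene start, in Slc33a1 125, in Slc25a36 187, in Slc45a3 163 and in Slc38a2 27 bases. The E-box core stood in 3 of the 10 windows of members that rose, 0 of 5 of those that fell and 3 of 38 of those not called. All 3 calls behind the first count were lost without any 1 hypomorph array. Without 1 wild-type array 1 of the 3 was kept, but not the same gene each time. It was Slc35a5 without replicate 1 or 3 and Slc25a36 without replicate 2. Over all 53 members the share was 11.3%, against 4.84% of 19827 windows of all genes and 7.80% of 3538 windows of array genes with a mean of 5 or more. The antioxidant response core stood in 2 of 10, 3 of 5 and 4 of 38 windows in the same order, or 17.0% of members, against 8.18% of all genes and 10.0% of genes at that level. Windows of members had a median GC content of 62.5%, those of genes at that level 61.0% and those of all genes 51.0%. A match is a description of these letters and not a binding site.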

How the data were processed

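Expression values cover the Affymetrix MOE430A probe sets for 3 wild-type and 3 hypomorph arrays. The titles name the arrays Mouse430A_2, except wild-type replicate 3, which they name Mouse430_2. The authors deposited 1 log2 value per probe set and array, made with Affymetrix Power Tools per the submitters' processing notes, with version, background correction and summarization not given in the sources used here. Its log base was inferred from the range of the values, so fold changes rest on it, and the close array medians point to normalization between arrays, which hides differences in total RNA. Precision is set by the number of arrays, since arrays give no read depth.

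There were 22690 probe sets, 64 of them controls and 1 without a value. By the platform annotation, 20379 of the other 22625 named exactly 1 gene, 691 several and 1555 none. Single-gene probe sets cover 12393 genes, 4955 with several, and the probe set of highest mean was used. The difference between genotypes was fitted over all genes in R 4.3.3 with limma 3.58.1 (lmFit, eBayes, no covariate, two-sided), with Benjamini-Hochberg adjustment. Python 3.11.15, pandas 2.3.3 and matplotlib 3.10.9 were used for tables and plots. The fit was tested on simulated data. Of the members 72 had 1 probe set and 66 had more, and they fall in 40 families. A promoter entry was found for 107 of 138 members.

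The members and lists were chosen with earlier results of these data known. Named by rule were the 12 largest rises and falls (only 11 fell) among called members without overlap, the 2 brightest members of each class and its member of smallest p where the first part named none, called lysosomal carriers, the 3 genes on either side of the level, and the 2 genes of smallest p in each list. All other genes were named after their values were seen, among them Slc7a5, Slc15a2, Slc15a4, Slc25a33, Slc25a37, Slc38a1 and the remaining called members. Alternatives were other choices of probe set, quantile normalization, centring, a filter on level, the replicate number as a block, array weights, a robust eBayes fit with a trend, a 1.5-fold minimum and leaving out each array; the spike-in covariate, the array-label subset and the fit of every probe set were added after seeing the data.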

Additional observations from a re-analysis of the deposited data

How the results depend on the processing

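Members that rose numbered 27 to 33 and members that fell 7 to 14 with other choices of probe set, other scalings, a filter on level, trend and robust fitting or array weights. With the second-brightest probe set 7 fell. With the replicate number as a block 21 members rose and 5 fell, against 753 and 478 of all 12393 genes. In their deviations from the group means, same-numbered arrays 1, 2 and 3 correlated at 0.153, 0.011 and 0.106. The same wild-type arrays correlated at most at -0.1014, 0.0474 and 0.1383 with the other hypomorph arrays. Whether the numbers pair the samples cannot be told from these values. A 1.5-fold minimum left 19 and 2. With the spike-in covariate 0 rose and 0 fell (20 at an unadjusted p under 0.05). Without 1 array 18 to 29 rose and 3 to 9 fell. The median log2 difference was 0.058 with the mean of probe sets, 0.054 with the second-brightest, 0.048 with a level of 4, 0.13 with the spike-in covariate, 0.11 on arrays that share title number and array name, and 0.077 to 0.12 without 1 array. Without 1 array, 5 to 6 amino acid carriers rose and 2 to 4 fell, 1 to 4 genes of the ion and pH class (adaptors included) rose and 1 to 2 fell, 3 to 4 metal carriers rose and 0 to 1 fell, 1 to 3 mitochondrial carriers rose and 0 to 1 fell, 3 to 6 nucleoside and nucleotide sugar carriers rose and 0 to 1 fell, 0 to 1 phosphate carriers fell, 1 to 2 monocarboxylate carriers rose and 0 to 1 vitamin carriers rose.

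Some directions turned, all of them under settings where the gene did not pass. The differences with the spike-in covariate come from a fit that can hardly separate it from genotype. With the spike-in covariate the differences were 0.12 for Slc6a13, 0.15 for Slc22a5, -0.10 for Slc14a1, -0.30 for Slc30a5, -0.17 for Slc39a6, -0.018 for Slc25a5, 0.31 for Slc35b1, -0.31 for Slc35a5, 0.79 for Slc66a2, -0.22 for Slc20a1, 0.30 for Slc20a2, -0.94 for Slc2a1, 0.032 for Slc44a2 and 0.078 for Slc46a3. With the second-brightest probe set they were 0.015 for Slc9a8, 0.29 for Slc22a5, -0.043 for Slc25a5, 0.056 for Slc66a2, 0.27 for Slc20a2 and 0.034 for Slc44a2, and with the mean of probe sets 0.0175 for Slc22a5, 0.10 for Slc20a2 and 0.042 for Slc2a3. Slc30a5 was at -0.031 with quantile normalization, and array weights gave -0.0035 for Slc30a5, 0.039 for Slc66a2 and 0.0063 for Slc44a2. On arrays that share title number and array name Slc20a1 was at -0.089. Without 1 array the range was -0.0032 to 0.088 for Slc30a5, -0.23 to 0.024 for Slc66a2, -0.035 to 0.16 for Slc66a1, -0.023 to 0.20 for Slc20a1, -0.11 to 0.037 for Slc20a2, -0.0055 to 0.33 for Slc2a1 and -0.023 to 0.0056 for Slc44a2. The cause was not tested for any of these. Fold changes at low levels are limited by background signal.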

Other observations

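Slc genes whose mean lay under the level of 5 numbered 120, of which 2 rose and 3 fell in the hypomorph, or 1.67% and 2.5%. Over all 4629 genes under that level the shares were 1.58% and 3.85%. Slc13a3, a sodium-coupled dicarboxylate carrier, measured 4.34 ± 0.37 on the wild-type arrays against 5.40 ± 0.25 on the hypomorph arrays (adjusted p = 0.0157 by limma). Slc7a2, a carrier of arginine and other cationic amino acids, was at 3.25 ± 0.08 and 3.69 ± 0.07 (adjusted p = 0.0133). Slc24a3, a potassium-dependent sodium and calcium exchanger, was at 4.96 ± 0.42 and 3.96 ± 0.15 (adjusted p = 0.0194). Slc30a2, a zinc carrier, was at 4.0 ± 0.23 and 3.43 ± 0.21 (adjusted p = 0.0423), and Slc29a4, a monoamine and nucleoside carrier, at 3.57 ± 0.22 and 3.11 ± 0.06 (adjusted p = 0.042). The first call was lost without hypomorph replicate 2 or 3, that of Slc7a2 without hypomorph replicate 1 or 2 and that of Slc24a3 without any 1 hypomorph array. Those of Slc30a2 and Slc29a4 held only with all 6 arrays or without wild-type replicate 3. The groups did not overlap for 17 of these 120 genes (14.2%), against 19.9% of all genes under the level.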
